A study of Mus musculus with 10 samples.

Results

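The genes described here are the interferon-responsive genes and the IRF and STAT transcription factors on a mouse cDNA array. They were chosen by symbol: array features annotated with 1 gene symbol that begins with Ifi, Ifit, Irf, Stat, Gbp, Oas or Trim and a digit, or with Isg, Oasl, Socs, Jak, Iigp or Irgm, or that is one of a short list of further interferon-induced genes such as Igtp, Usp18 and Ly6e. This gave 66 features of 58 genes, out of 9596 features and 6795 named genes. By role they were 4 STAT factors, 8 IRF factors, 2 IRF2-binding proteins, 1 JAK kinase, 7 SOCS proteins, 13 antiviral effectors, 7 interferon-inducible GTPases and 16 TRIM proteins. The name rule also takes in genes that are not known as interferon targets, among them most of the TRIM family and the IRF2-binding proteins Irf2bp2 and Irf2bpl. Stat2, Stat5b, Jak1, Jak3, Isg15, Isg20, Mx1, Mx2, Bst2 and Gbp3 had no feature with 1 symbol and were not analysed here.

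Interferons are cytokines that signal through receptor-bound JAK kinases, which phosphorylate STAT factors. Type I interferon brings a complex that holds STAT2 and IRF9 to the interferon-stimulated response element (ISRE), and interferon-gamma sends STAT dimers to the gamma-activated site (GAS). In macrophages, lipopolysaccharide (LPS, from the outer membrane of Gram-negative bacteria) engages Toll-like receptor 4, which activates IRF3, induces interferon-beta, and the secreted interferon then acts back on the cells. SOCS proteins bind receptors and JAK kinases and end the signal.

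Each array compared the total RNA of a pair of macrophage cultures, 1 in each channel, and the deposited value of a feature is the log ratio of both, taken as log2. The cells were the adherent fractions of peritoneal exudate cells (PEC) and of tumour-associated macrophages (TAM) from C57/6N mice aged 8 weeks. Per the labels, the TAM and the PEC set against them came from mice that had carried an implanted tumour for 3 weeks. The labels do not name the tumour, and for the PEC of PEC1 and PEC2 they mention none. Cultures were untreated or had 100 ng/mL LPS for 4 hours. The arrays TAM-b, TAM-2R, TAM-3 and also TAM-8 measured untreated TAM over untreated PEC (4 arrays). There were 2 of PEC with LPS over untreated PEC (PEC1 and PEC2), 2 of TAM with LPS over untreated TAM (TAM-16, TAM-trial) and 2 of TAM with LPS over PEC with LPS (TAM1 and TAM7). Whether the arrays of 1 group stem from different mice or dishes is not in the labels, so a p-value here reflects the spread from array to array, which may be technical.

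No label names the dyes, so every direction given here is only likely. It rests on NF-kB targets: 18 of 20 measured NF-kB target genes, none of them among the 58, lay above 0 on PEC1 (median log2 ratio 2.16) and 18 of 20 on PEC2 (median 2.71) when channel 2 was read over channel 1. TAM-2R and TAM1 had exchanged channels and were turned. After turning, TAM1 correlated with TAM7 at r = 0.293 over all genes and features, TAM-trial with TAM-16 at r = 0.096, PEC1 with PEC2 at r = 0.269, and TAM-2R with the other arrays of its group at r from 0.036 to 0.101. With the channel order of both left unturned, other counts were found, and these stand beside the results they change. PEC1 and PEC2 shared 1 channel order, and so did TAM-trial and TAM-16. The arrays of an LPS comparison alone therefore cannot tell a dye effect on a feature from the LPS effect. A dye term, fitted as an alternative, draws on the turned arrays and assumes the same dye effect in all comparisons. A difference between bulk cultures cannot tell fewer cells of a type from less RNA per cell. Of 5 measured macrophage markers (Adgre1, Cd68, Fcgr1, Itgam and Lyz2, of 15 listed), 4 had a negative mean log2 ratio in untreated TAM (median -0.93), and all 5 were negative on both arrays of TAM with LPS over PEC with LPS (median -1.72). The medians of 9 neutrophil and 9 fibroblast markers in untreated TAM were 0.95 and 1.14, and those of 5 plasmacytoid dendritic cell markers (Irf8 among them) and 8 T and NK cell markers -0.70 and -0.09. The part of such cells in the results below was not tested. Ratios give no levels, so the presence of each cell type cannot be read from them.

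The upstream sequences of 7 members show how the ISRE core and the GAS motif sit in these genes. Of the 58 members, 47 had a promoter in the RefSeq table (build GRCm38.p6). Each line gives the 250 bases before an annotated gene start, 5′ to 3′ on the gene's strand, in lower case except for motif matches on either strand, which are in capitals. The ISRE core searched was GAAA, any 2 bases and GAAA, and the GAS motif was TTCNNNGAA. Ifit1 and Oas1a stand for the antiviral effectors, Gbp2 and Igtp for the GTPases, Socs3 and Irf1 for genes with a GAS match alone, and Irf7 is the factor with the largest ratio in untreated TAM.
Ifit1, chr19:34640639-34640888, plus strand: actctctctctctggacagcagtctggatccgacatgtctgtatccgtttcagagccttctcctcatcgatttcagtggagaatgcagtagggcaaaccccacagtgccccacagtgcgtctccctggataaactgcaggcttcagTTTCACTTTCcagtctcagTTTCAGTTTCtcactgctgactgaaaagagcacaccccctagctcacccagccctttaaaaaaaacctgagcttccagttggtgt
Oas1a, chr5:120907526-120907775, minus strand: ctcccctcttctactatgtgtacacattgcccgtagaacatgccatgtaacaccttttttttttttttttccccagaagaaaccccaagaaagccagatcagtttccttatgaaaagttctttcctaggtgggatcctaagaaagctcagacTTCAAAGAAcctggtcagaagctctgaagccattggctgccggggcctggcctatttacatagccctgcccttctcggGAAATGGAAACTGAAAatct
Gbp2, chr3:142620413-142620662, plus strand: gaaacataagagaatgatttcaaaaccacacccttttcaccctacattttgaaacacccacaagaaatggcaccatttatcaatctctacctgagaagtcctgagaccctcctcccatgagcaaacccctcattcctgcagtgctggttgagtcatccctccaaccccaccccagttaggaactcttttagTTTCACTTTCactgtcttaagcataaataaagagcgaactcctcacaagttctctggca
Igtp, chr11:58199306-58199555, plus strand: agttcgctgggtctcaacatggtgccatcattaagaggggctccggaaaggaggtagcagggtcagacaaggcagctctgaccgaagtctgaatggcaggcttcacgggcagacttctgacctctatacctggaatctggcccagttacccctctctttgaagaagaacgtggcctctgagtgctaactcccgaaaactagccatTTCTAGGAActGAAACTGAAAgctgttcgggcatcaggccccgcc
Socs3, chr11:117969367-117969616, minus strand: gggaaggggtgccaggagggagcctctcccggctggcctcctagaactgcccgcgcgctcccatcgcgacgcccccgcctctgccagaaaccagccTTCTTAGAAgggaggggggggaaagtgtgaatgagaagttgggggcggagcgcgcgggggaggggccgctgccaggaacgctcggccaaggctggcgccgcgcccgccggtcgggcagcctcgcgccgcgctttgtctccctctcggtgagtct
Irf1, chr11:53769764-53770013, plus strand: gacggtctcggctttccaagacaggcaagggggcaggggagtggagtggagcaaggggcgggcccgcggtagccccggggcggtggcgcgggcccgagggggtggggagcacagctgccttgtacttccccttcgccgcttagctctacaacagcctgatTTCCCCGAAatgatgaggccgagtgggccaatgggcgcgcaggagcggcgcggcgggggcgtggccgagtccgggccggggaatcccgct
Irf7, chr7:141266425-141266674, minus strand: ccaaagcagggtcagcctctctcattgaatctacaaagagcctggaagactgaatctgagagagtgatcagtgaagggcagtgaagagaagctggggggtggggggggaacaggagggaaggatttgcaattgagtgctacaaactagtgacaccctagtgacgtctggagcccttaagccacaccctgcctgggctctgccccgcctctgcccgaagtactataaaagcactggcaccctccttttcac

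Ifit1 and Oas1a each held 2 ISRE cores, those of Oas1a overlapping each other 20 and 14 bases before the start, and Oas1a also held a GAS match. Gbp2 held 1 ISRE core. In Igtp a GAS match 45 bases before the start stood next to an ISRE core 34 bases before it. The Socs3 and Irf1 windows held 1 GAS match each, and Irf1 had a further annotated start with neither. The letters of both motifs are not in the Irf7 window, which says nothing of the factors that act there.

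Over the 300 bases from 250 before to 50 after the start, 19 of 47 member promoters (40.4%) held an ISRE core, against 3.99% of the promoters of 27025 genes. GAS matches were in 13 of 47 (27.7%), against 9.55%. No ISRE match overlapped a GAS match. Of the 26 ISRE matches, 17 lay within 100 bases before the start, in 14 genes. Among the 15 members with a promoter whose mean ratio with LPS in PEC was at least 1 on the log2 scale and positive on both arrays, 7 held an ISRE core (46.7%) and 6 a GAS match (40.0%), and among the 32 others 12 (37.5%) and 7 (21.9%) did. The map of motif positions shows these matches by gene. A match is a description of letters and not evidence of binding.

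**Figure D1:**
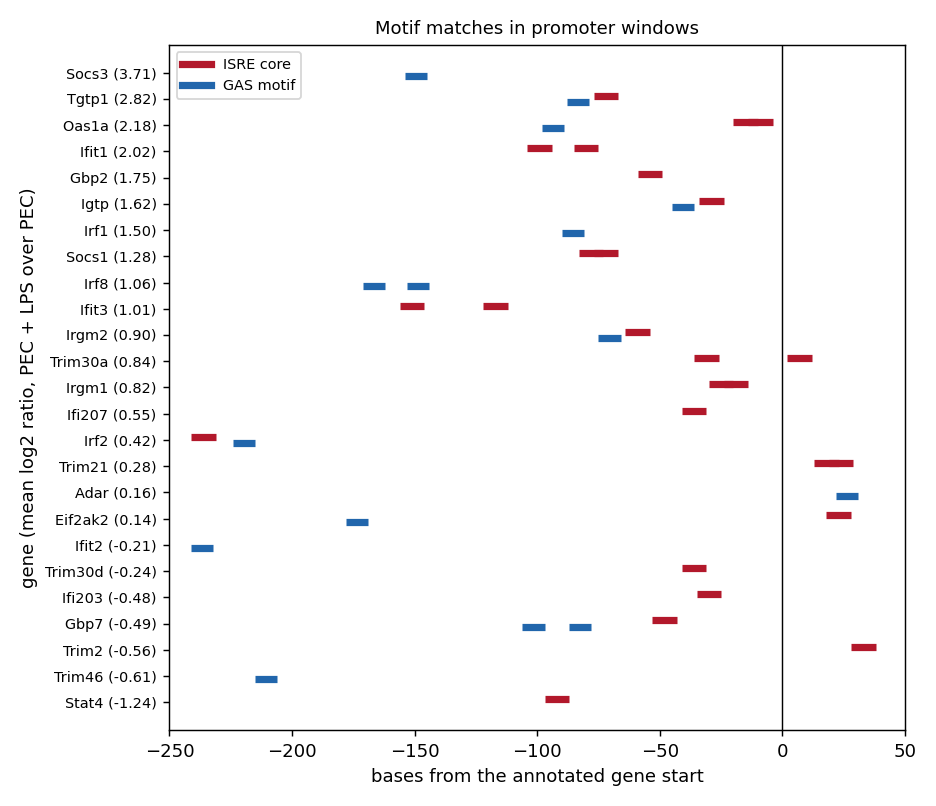
Positions of ISRE core (red) and GAS (blue) matches in the promoter windows of members that hold at least 1, against the distance in bases from the annotated gene start (vertical line at 0). Genes are ordered by mean log2 ratio of PEC with LPS over PEC, given in parentheses. Of the 26 ISRE matches, 17 lie within 100 bases before the start.

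The log2 ratios of all 58 genes on the 10 arrays are drawn as a heat map ordered by role. The block of antiviral effectors and GTPases is mostly red on PEC1 and PEC2 and mostly blue on TAM1 and TAM7. The TRIM proteins show no colour shared by all arrays of a group. In untreated TAM 12 of 16 TRIM genes had a mean above 0 (75%, against 48.7% of all tested), but only 1 was above 0 on all 4 arrays.

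**Figure D2:**
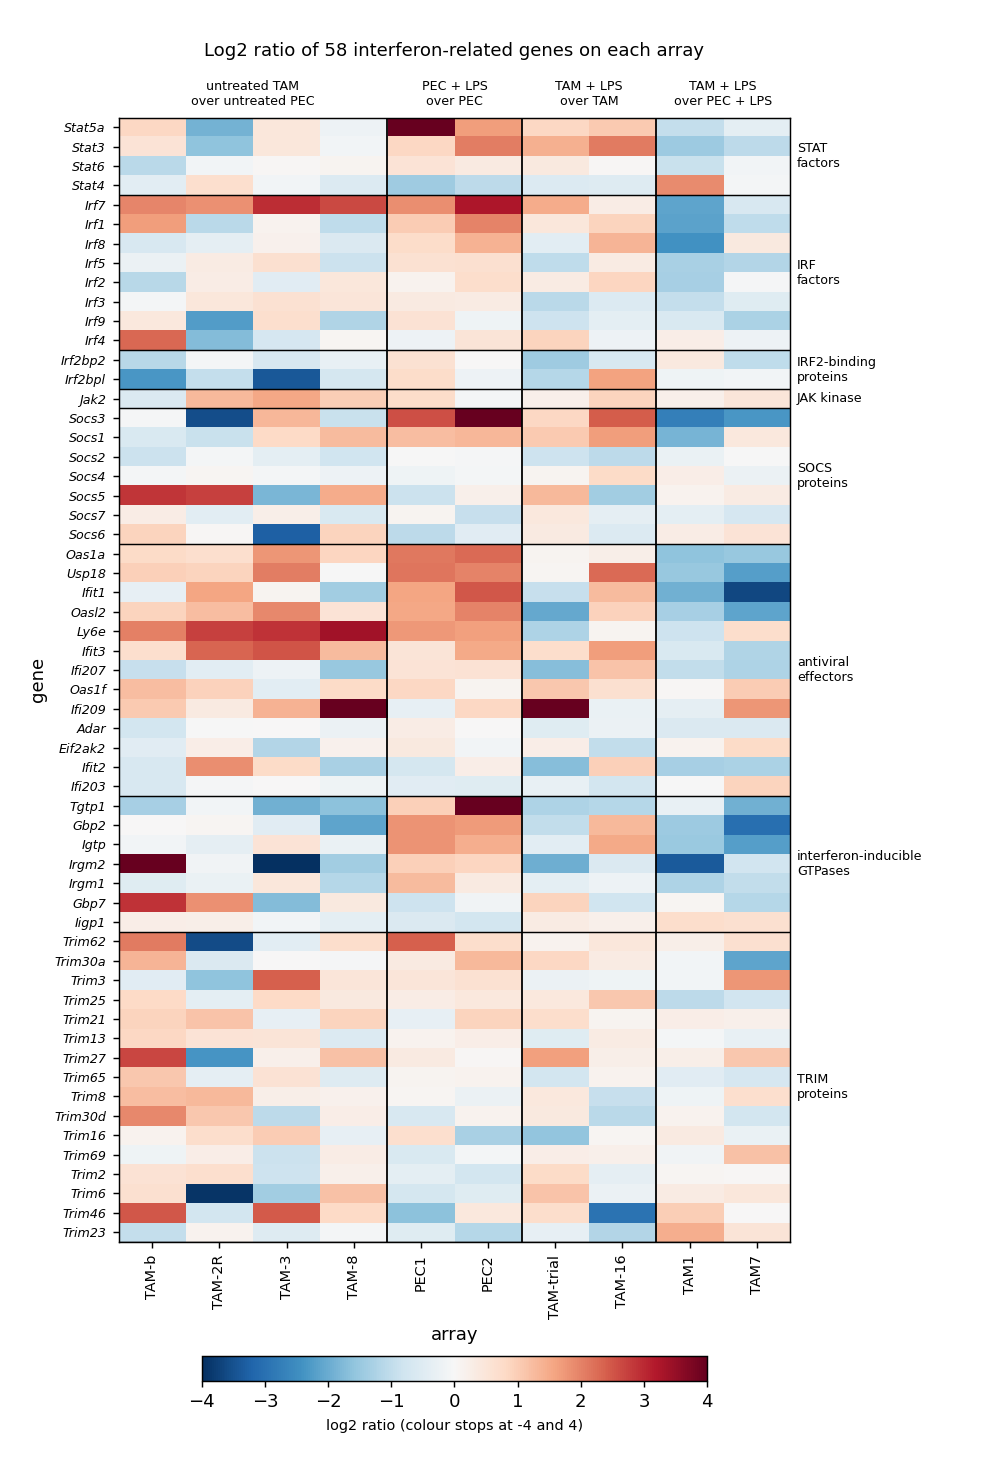
Log2 ratio of each of the 58 genes (rows, by role) on each of the 10 arrays (columns, by comparison). Red is above 0 and blue below, and colours stop at -4 and 4. Antiviral effectors and GTPases are mostly above 0 with LPS in PEC and mostly below 0 in TAM with LPS over PEC with LPS.

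How the members respond to LPS in peritoneal macrophages is the reference for the other comparisons. Here 9 of 13 antiviral effectors, 5 of 7 GTPases, Socs3, Irf7 and Irf1 had positive ratios on both arrays. Of the 58 members 33 did, against 2794 of all 8905 tested. No member passed the test. The test was limma over 8905 genes and unnamed features with Benjamini-Hochberg adjustment and a threshold of 0.05. In all, 1 gene or feature passed (0.0112%), and 13 members above 0 and 1 below had an unadjusted p under 0.05, against 5.73% and 2.41% of all. As a description without a test, a size rule asks for a mean log2 ratio of at least 1 in size with the same sign on every array of the comparison. It took 17 of the 58 genes above 0 (29.3%), against 11.0% of all tested, and 1 below 0, against 3.48%. The median log2 ratio of the 58 genes was 0.32, that of all tested -0.04. The 5 macrophage markers had a median of 0.77 here, the 9 neutrophil markers 1.0 and the 8 T and NK cell markers -0.42. Of the neutrophil markers 5 had a mean above 0 and 4 below, with Padi4 at 5.81 and 6.52. Of the T and NK cell markers 2 had a mean above 0 and 6 below, with Cd3d at 5.12 and 5.31. The part of such cells in these ratios was not tested.

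Among the STAT factors, Stat5a, which carries signals of growth factors and interleukins, had log2 ratios of 6.12 on PEC1 and 1.66 on PEC2. Both lie above 0, but they are far apart, and the mean of 3.89 ± 3.16 (SD, n = 2) had a limma adjusted p of 0.302. Stat3, the factor of the interleukin-6 and interleukin-10 families, stood at 0.83 and 2.04 (mean 1.43 ± 0.86, SD, n = 2). Stat6, the factor of interleukin-4, stood at 0.55 and 0.37. Stat4, the factor of interleukin-12, was the only STAT gene below 0 on both arrays, at -1.42 and -1.06.

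All 8 IRF factors had a mean above 0 with LPS in PEC, as 48.1% of all tested did. Irf7, the amplifier of type I interferon production, had log2 ratios of 1.87 on PEC1 and 3.22 on PEC2, the highest of the family on both. Its mean of 2.55 ± 0.96 (SD, n = 2) is a 5.84-fold ratio, with a limma adjusted p of 0.251. Irf1, an activator induced by interferon-gamma, stood at 1.03 and 1.97, and Irf8, a factor of the myeloid lineage, at 0.74 and 1.39. Ratios were smaller for Irf3, the target of Toll-like receptor signals, at 0.37 and 0.33. Irf5, which acts in induction of inflammatory cytokines, stood at 0.61 and 0.65. Irf9, the DNA-binding part of the complex on the ISRE, had opposite signs, 0.58 and -0.16. So did Irf4, a factor tied to M2 polarisation, at -0.21 and 0.50, while Irf2, an antagonist of Irf1, stood at 0.14 and 0.71.

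The feedback inhibitors split. Socs3, which blocks the receptors of the interleukin-6 family, had log2 ratios of 2.59 on PEC1 and 4.83 on PEC2. Its mean of 3.71 ± 1.59 (SD, n = 2) is a 13.1-fold ratio, with a limma adjusted p of 0.407. Socs1, which inhibits JAK kinases in interferon signalling, stood close together at 1.24 and 1.33. The other 5 SOCS genes had means from -0.75 (Socs6) to -0.03 (Socs2). Jak2, the kinase of the interferon-gamma receptor, stood at 0.73 and -0.07.

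Of the 13 antiviral effectors, 6 met the size rule above 0 and 0 below. Oas1a, which makes the 2-5A messenger that activates RNase L, had log2 ratios of 2.10 and 2.26, a mean of 2.18 ± 0.11 (SD, n = 2) or 4.54-fold, and the lowest limma adjusted p of the members here, 0.173. Usp18, the protease that removes ISG15 and damps the type I receptor, stood at 2.14 and 1.99. Ifit1, which binds viral RNA that lacks the host cap, stood at 1.58 and 2.48. These genes were above 0 on both arrays. The pairs of Oas1a and Usp18 lay near each other (SD 0.11 for each), and that of Ifit1 lay wider apart (SD 0.64). Oasl2, an OAS-like protein, stood at 1.56 and 1.99, and Ly6e, a small GPI-anchored surface protein, at 1.72 and 1.65. Ifit3 stood at 0.52 and 1.51. In contrast, Ifit2 had opposite signs (-0.69 and 0.27), and so did Eif2ak2, the kinase PKR that halts translation (0.40 and -0.12), while Adar, which edits double-stranded RNA, stood at 0.31 and 0.02. Adar had 3 features and Eif2ak2 had 2. The Adar features did not share a sign, with means of 0.586, -0.432 and 0.336.

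Among the GTPases, Gbp2, which attacks the vacuoles of intracellular pathogens, had log2 ratios of 1.80 and 1.70, and Igtp, an immunity-related GTPase, 1.81 and 1.44. Both had narrow pairs, with means of 1.75 ± 0.07 and 1.62 ± 0.26 (SD, n = 2). Tgtp1, of the same family, stood at 0.95 on PEC1 and 4.69 on PEC2, so its mean of 2.82 rests on the second array. Irgm1 and Irgm2, regulators of the family, stood at 1.26 and 0.37 and at 0.95 and 0.85. Iigp1 was below 0 on both arrays, at -0.58 and -0.75, and Gbp7 at -0.82 and -0.15. Of the 16 TRIM genes, 1 met the size rule, Trim62 at 2.40 and 0.70. Its mean turned to -0.92 with a dye term for each print version, a fit that rests on PEC2 alone here. Trim30a, an inhibitor of Toll-like receptor signals in the mouse, stood at 0.37 and 1.31, and Trim21, a cytosolic antibody receptor, at -0.32 and 0.88. Trim25, which activates the RNA sensor RIG-I, stood at 0.31 and 0.41. The 4 TRIM genes below 0 on both arrays included Trim23 (-0.48 and -1.15), Trim6 (-0.69 and -0.5) and Trim2 (-0.4 and -0.72).

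Leaving out PEC2 brought Stat5a past the test (6.12, limma adjusted p = 0.0214) and leaving out PEC1 brought Tgtp1 past it (4.69, adjusted p = 0.0337), each then resting on 1 array. A loop fit, which estimates the 3 differences among the 4 conditions from all arrays, called Oas1a (adjusted p = 0.0215) and Irf7 (0.0388).

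In tumour macrophages the response to LPS was measured on arrays that differed more from each other. Stat3, Stat5a, Socs1 and Socs3 had positive ratios on both arrays, while 7 of 13 antiviral effectors and 3 of 7 GTPases had opposite signs. Opposite signs were common among all 8905 tested too, of which only 1994 were above 0 on both arrays and 2999 below 0 on both. No member passed the limma test, as 0 of all 8905 did, and 1 member above 0 and 1 below had an unadjusted p under 0.05, against 0.898% and 4.68% of all. The size rule took 5 of 58 genes above 0 (8.62%), against 3.58% of all, and 3 below 0, against 8.02%. The median of the 58 genes was 0.16, that of all tested -0.13.

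Stat3 had log2 ratios of 1.43 on TAM-trial and 2.08 on TAM-16, the highest mean among members above 0 on both arrays. Its mean of 1.75 ± 0.46 (SD, n = 2), 3.37-fold, had a limma adjusted p of 0.827. Socs3 stood at 0.82 and 2.42, Socs1 at 1.06 and 1.67, and Stat5a at 0.82 and 1.05. These 4 genes were thus above 0 on both arrays in TAM as in PEC. Irf1 stood at 0.44 and 0.88, Irf7 at 1.48 and 0.30, Irf2 at 0.32 and 0.86, and Ifit3 at 0.69 and 1.68.

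The classical targets split between the arrays. Ifit1 had a log2 ratio of -0.93 on TAM-trial and 1.28 on TAM-16. Gbp2 stood at -1.0 and 1.3, Igtp at -0.43 and 1.5, and Oasl2 at -2.06 and 0.91. Ifit2, Irf8 and Ifi207 likewise were below 0 on TAM-trial and above 0 on TAM-16, whereas Usp18 was near 0 on the first (0.09) and high on the second (2.27). Of the 58 genes, 13 had a log2 ratio of at least 1 on TAM-16 (22.4%), against 3.54% of all tested. On TAM-trial 8 did (13.8%), against 15.2%, and 12 stood at -1 or below (20.7%), against 17.7%. The macrophage markers also parted there, with a median of -2.50 on TAM-trial and 0.40 on TAM-16, and their part in the result was not tested.

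Oas1a had small ratios on both arrays, 0.11 and 0.24, and a mean of 0.18 ± 0.10 (SD, n = 2). Tgtp1 stood at -1.24 and -1.15, Irgm2 at -1.95 and -0.57, and Irf2bp2, a co-repressor partner of IRF2, at -1.43 and -0.64, and these were the 3 genes below 0 by the size rule. Socs2, the inhibitor of growth hormone signals, stood at -0.84 and -1.05, Irf3 at -1.07 and -0.54, and Trim23 at -0.33 and -1.18. With a single array in the comparison the size rule took more members and their direction differed. Without TAM-trial it took 13 above 0 and 6 below, 19 in all (14% of all tested), and without TAM-16 it took 8 above and 12 below, 20 in all (32.9% of all tested), against 8 members with both arrays.

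The difference of the LPS responses (TAM minus PEC) was tested in the same fit, and 0 members and 0 of all 8905 passed the limma test. At an unadjusted p under 0.05 there were 0 of 58 members above 0, against 80 of 8905 tested (0.898%). Below 0 there were 5 of 58, against 532 of 8905 (5.97%), so the members were close to the share of all. Those 5 were Tgtp1 (difference of log2 ratios -4.02, SE 1.13), Stat5a (-2.96, SE 1.31), Oasl2 (-2.35, SE 0.91), Ly6e (-2.25, SE 0.74) and Oas1a (-2.01, SE 0.57). The lowest limma adjusted p among members was 0.719. Of the 58 differences, 36 lay below 0 and 22 above (37.9% above, against 44.7% of all tested). Their median was -0.27, while that of all tested was -0.11. Stat3 (1.75 in TAM, 1.43 in PEC) and Socs1 (1.36 in TAM, 1.28 in PEC) had like means in both cell kinds, but a p that misses the threshold does not show that the responses were equal.

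**Figure D3:**
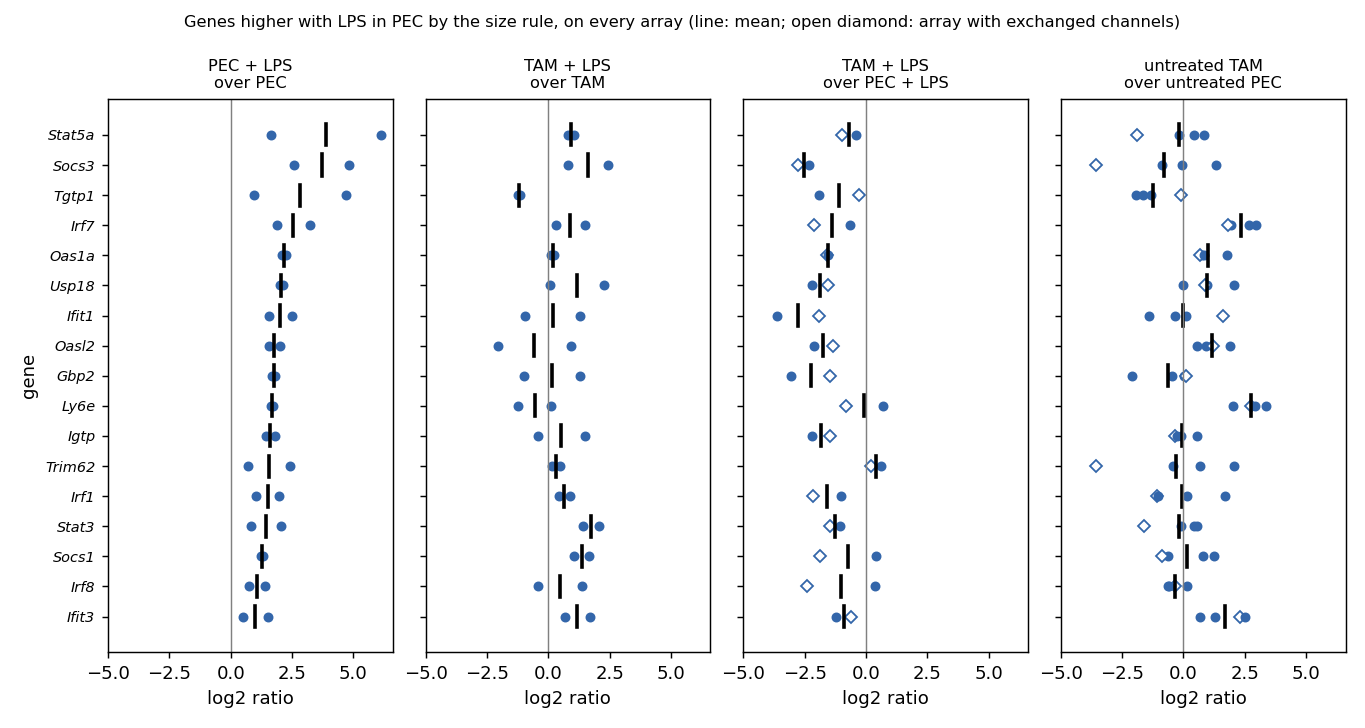
Log2 ratio on each array (points) and mean (black line) of the 17 genes with a mean of at least 1 and positive values on both arrays of PEC with LPS over PEC, in the 4 comparisons. Open diamonds are TAM-2R and TAM1, whose channels were exchanged. In the third panel both arrays are below 0 for Ifit1, Socs3, Gbp2, Usp18 and Igtp, and in the fourth all 4 arrays are above 0 for Ly6e and Irf7.

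Comparing TAM with LPS directly with PEC with LPS asks how the stimulated cells differ. The classical interferon targets had negative ratios on both arrays: Ifit1, Gbp2, Igtp, Usp18, Oasl2 and Oas1a, and with them Socs3, Irf1 and Irf7. No member passed the limma test, against 0.0674% of all tested (0.0112% higher and 0.0561% lower). At an unadjusted p under 0.05, 0 members lay above 0, against 2.08% of all, and 11 below 0, against 6.92%. The size rule took 17 of 58 genes below 0 (29.3%), against 9.35% of all, and 0 above 0, against 6.65%. The median of the 58 genes was -0.51, that of all tested 0.08, and on each array 18 members (31.0%) stood at -1 or below, against 14.3% of all on TAM1 and 8.51% on TAM7.

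Ifit1 had log2 ratios of -1.92 on TAM1 and -3.64 on TAM7, the lowest mean of the members, -2.78 ± 1.22 (SD, n = 2), a 6.88-fold ratio with a limma adjusted p of 0.274. Oas1a had close values of -1.60 and -1.53, and the lowest limma adjusted p of the members, 0.242. Usp18 stood at -1.53 and -2.19 and Oasl2 at -1.34 and -2.12. All 4 effectors were thus at least 1 below 0 on both arrays. Ifit2 stood at -1.32 and -1.26 and Ifit3 at -0.62 and -1.20, while Ly6e had opposite signs, -0.83 and 0.69. Adar stood at -0.58 and -0.57, and Eif2ak2 above 0 at 0.13 and 0.76. Both are averages of features that did not share a sign. The Adar features had means of -0.929, 0.098 and -0.882, and those of Eif2ak2 -0.167 and 1.064.

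Of the 7 GTPases, 5 met the size rule below 0. Gbp2 had log2 ratios of -1.45 and -3.03, and Igtp -1.47 and -2.20. Irgm1 stood at -1.25 and -0.99. Irgm2 was lower on TAM1 (-3.37) than on TAM7 (-0.78), and Tgtp1 the other way round (-0.30 and -1.92). Iigp1 was the only GTPase above 0 on both arrays, at 0.69 and 0.63.

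Among regulators, Socs3 had log2 ratios of -2.75 and -2.33 and a mean of -2.54 ± 0.30 (SD, n = 2), a 5.82-fold ratio with a limma adjusted p of 0.477. Stat3 stood at -1.46 and -1.06, Irf5 at -1.30 and -1.16, Irf1 at -2.15 and -1.01 and Irf7 at -2.10 and -0.65. The IRF and STAT genes below 0 on both arrays also included Irf2, Irf3, Irf9, Stat5a and Stat6. Irf8 (-2.41 and 0.38) and Socs1 (-1.85 and 0.43) were low on TAM1 alone. Stat4 stood at 1.90 and -0.07. Of the 16 TRIM genes, Trim30a met the size rule, at -0.12 and -2.10, and 11 of 16 had a mean above 0, as 55.7% of all tested did. On both arrays, 7 TRIM genes lay above 0 and 4 below. Trim23 stood at 1.44 and 0.52, the highest mean of the 58 genes (0.98). Trim27 stood at 0.24 and 1.08 and Trim46 at 0.98 and 0.01.

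The coding of TAM1 bears on this result. With the exchanged arrays not turned, 3 members met the size rule and all 3 lay above 0, and the means of Irf7, Irf1 and Irgm2 became 0.72, 0.57 and 1.30. TAM7, which needs no turning, gave Ifit1, Gbp2, Igtp, Usp18, Oasl2, Oas1a and Socs3 the values below 0 given above. The 5 macrophage markers lay below 0 on both arrays too, with medians of -1.49 and -2.01, and their part in the result was not tested. TAM1, once turned, correlated with PEC1 and PEC2 at r = -0.357 and -0.291 over all genes, and TAM7 at -0.112 and -0.172. These comparisons share the kind of RNA in a channel, and their values are therefore only set side by side. The sum of the untreated difference and the LPS response in TAM, minus the LPS response in PEC, gave -1.86 for Ifit1, -2.22 for Gbp2, -2.88 for Socs3 and -1.14 for Igtp, beside direct means of -2.78, -2.24, -2.54 and -1.84. Other members had sums far from the direct mean. For Usp18 the sum was 0.08 beside -1.86, and for Irf7 0.69 beside -1.37. Stat3 had 0.14 beside -1.26, Ifit3 1.86 beside -0.91, and Tgtp1 -5.26 beside -1.11.

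**Figure D4:**
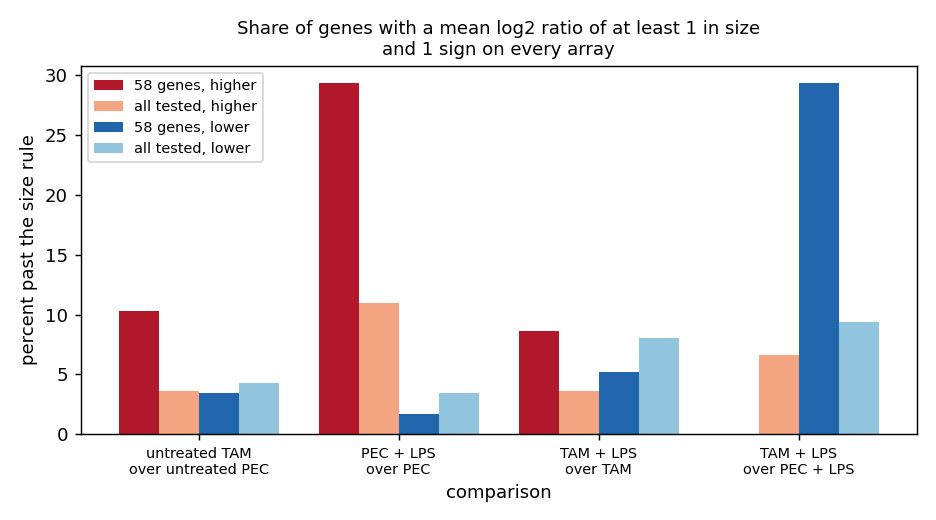
Percent of genes with a mean log2 ratio of at least 1 in size and the same sign on every array, for the 58 genes (dark bars) and for all 8905 genes and features tested (light bars), above 0 (red) and below 0 (blue), in each comparison. The 58 genes reach 29.3% above 0 with LPS in PEC and 29.3% below 0 in TAM with LPS over PEC with LPS, against 11.0% and 9.35% of all.

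Before any LPS, 28 members had a mean above 0 and 30 below, and 2 of them, Ly6e and Irf7, rose past the test in TAM. That is 2 of 58 higher and 0 lower, against 0.124% of all tested higher and 0.337% lower by limma. The size rule took 6 of 58 genes above 0 (10.3%), against 3.65% of all, and 2 below 0 (3.45%), against 4.29%. The median of the 58 genes was -0.01, that of all tested -0.02. At an unadjusted p under 0.05, 6 members lay above 0, against 6.57% of all, and 1 below, against 7.74%.

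Ly6e (Entrez 17069, on chromosome 15) had log2 ratios of 2.03 on TAM-b, 2.74 on TAM-2R, 2.90 on TAM-3 and 3.36 on TAM-8. All 4 arrays lay well above 0. The mean was 2.76 ± 0.55 (SD, n = 4), 6.76-fold, with a limma adjusted p of 0.0152. Irf7 (Entrez 54123, on chromosome 7) had log2 ratios of 1.94 on TAM-b, 1.83 on TAM-2R, 2.95 on TAM-3 and 2.65 on TAM-8. Again no array lay near 0. The mean was 2.34 ± 0.55 (SD, n = 4), 5.08-fold, with a limma adjusted p of 0.0412. Both were thus high in TAM on the turned TAM-2R as on the 3 arrays in the common order.

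Their calls depend on the arrays and on the fit. Without TAM-2R, TAM-3 or TAM-8, Ly6e had limma adjusted p-values of 0.0714, 0.0604 and 0.0774, and Irf7 missed the threshold without any 1 of the 10 arrays (0.0637 to 0.145). With TAM-2R and TAM1 not turned, the means were 1.39 and 1.43 and neither gene passed (0.651 and 0.618), nor did either with a dye term (0.0574 and 0.088), with arrays scaled to 1 spread (0.0801 and 0.158), with print v3p6 alone (0.586 and 0.735) or with the arrays of the comparison alone (0.197 and 0.231).

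Further effectors had positive ratios on all 4 arrays without passing the test. Ifit3, a partner of Ifit1, had log2 ratios of 0.66 on TAM-b, 2.32 on TAM-2R, 2.50 on TAM-3 and 1.27 on TAM-8 (mean 1.69 ± 0.87, SD, n = 4, limma adjusted p = 0.114). Oasl2 stood at 0.90, 1.22, 1.91 and 0.55 in the same order (mean 1.15 ± 0.58, SD, n = 4). Oas1a stood at 0.77, 0.67, 1.76 and 0.85 (mean 1.01 ± 0.50, SD, n = 4). These 3 genes lay above 0 on every array, and each was highest on TAM-3. Ifi209, a protein of the PYHIN family of nucleic acid sensors, stood at 1.05, 0.36, 1.4 and 4.26, so its mean of 1.77 leaned on TAM-8. Usp18 was above 0 on 3 of 4 arrays (0.94, 0.88 and 2.06, against -0.03 on TAM-8). Ifit1 (-0.34, 1.59, 0.10 and -1.39) and Ifit2 (-0.64, 1.85, 0.77 and -1.30) had arrays on both sides of 0.

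Below 0 by the size rule were Irf2bpl, a zinc-finger relative of Irf2bp2, and Tgtp1. Irf2bpl had log2 ratios of -2.34, -0.96, -3.40 and -0.70 (mean -1.85 ± 1.26, SD, n = 4, limma adjusted p = 0.21). It is the mean of 2 features, whose own means were -2.726 and -0.978. Tgtp1 stood at -1.32, -0.10, -1.92 and -1.65. Ifi207, Irf2bp2 and Socs2 also lay below 0 on every array, with means of -0.77, -0.53 and -0.53. The factors other than Irf7 had no common direction: Irf1 ranged from -1.07 to 1.68, Irf4 from -1.72 to 2.31, Stat5a from -1.89 to 0.83 and Irf9 from -2.24 to 0.67. Irf3 was near 0 or above it, at -0.08, 0.44, 0.61 and 0.49, and Irf5 lay between -0.85 and 0.64. The widest spread of a member was that of Irgm2, from -4.07 on TAM-3 to 5.93 on TAM-b.

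Set side by side across the comparisons, Ly6e and Irf7 were above 0 in untreated TAM and with LPS in PEC, and their mean ratios with LPS in TAM were -0.56 and 0.89. Ifit1, Gbp2 and Igtp had untreated means of -0.01, -0.62 and -0.05, and means of 2.02, 1.75 and 1.62 with LPS in PEC. Socs3 had an untreated mean of -0.79 that spread from -3.55 on TAM-2R to 1.32 on TAM-3. Stat3, Socs1, Socs3, Usp18 and Ifit3 had means above 1 with LPS in both cell kinds. The TRIM genes had medians between 0.02 and 0.27 in all 4 comparisons.

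Related genes on the array had unlike ratios, and cDNA spots of near-identical family members may share target. Oas1f stood at 0.84 and 0.10 with LPS in PEC where Oas1a stood at 2.10 and 2.26, and at 0.06 and 1.0 in TAM with LPS over PEC with LPS where Oas1a stood at -1.60 and -1.53. Gbp7 and Gbp2, Ifi203, Ifi207 and Ifi209, Irgm1 and Irgm2, and Trim30a and Trim30d are such groups too, and Tgtp1 has a near-identical neighbouring copy. The 2 features of Ifi203 had means of 1.462 and -0.594 in TAM with LPS over PEC with LPS. The ratios of these genes are uncertain to that extent.

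The surrounding pathway was read from 3 further lists. Of 16 genes listed as interferon ligands and receptors 6 were measured: Ifnar1, Ifnar2, Ifngr1, Ifngr2, Il6st and Tyk2. No interferon ligand was among them, so the ligands were not read here. Of the 6, 0 passed the limma test in any comparison. Ifnar1 and Ifnar2, the chains of the type I interferon receptor, had log2 ratios of 1.58 and 1.34 and of 1.82 and 1.04 with LPS in PEC. In TAM with LPS over PEC with LPS they stood at -1.90 and -2.21 and at -1.48 and -1.23. Both receptor chains thus had the same sign on both arrays of each of these comparisons. Of 16 listed JAK-STAT regulators 11 were measured, and 0 passed. Ptpn6, the phosphatase SHP-1, had log2 ratios of 1.34 and 1.0 with LPS in PEC and -0.83 and -2.13 in TAM with LPS over PEC with LPS.

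Of 60 other interferon-induced genes 32 were measured, and 0 passed. The size rule took 17 of 32 above 0 with LPS in PEC (53.1%, against 11.0% of all tested) and 6 with LPS in TAM (18.8%, against 3.58%). It took 17 below 0 in TAM with LPS over PEC with LPS (53.1%, against 9.35%) and 8 above 0 in untreated TAM (25.0%, against 3.65%). Cxcl10, an interferon-induced chemokine, had log2 ratios of 3.47 on TAM-b, 2.68 on TAM-2R, 3.08 on TAM-3 and 1.4 on TAM-8 in untreated TAM, with a limma adjusted p of 0.0505. Lgals9, galectin-9, stood at -2.71 and -2.62 in TAM with LPS over PEC with LPS, with a limma adjusted p of 0.0529. Neither passed the threshold. Rsad2, the antiviral protein viperin, stood at 1.38 and 3.73 with LPS in PEC, and Tap1, a peptide transporter of antigen presentation, at 1.65 and 1.44. With LPS in TAM, Rsad2 stood at 0.44 and 2.89 and Tap1 at -0.8 and 1.07. Ccl5, a chemokine, had the highest mean of this list in both LPS comparisons, 4.35 in PEC and 4.53 in TAM. The median of the list was 1.13 with LPS in PEC and 0.25 with LPS in TAM.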

How the data were processed

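Per the labels, total RNA of cultured mouse macrophages was hybridised in pairs to 10 spotted cDNA arrays from 3 print versions, v3p6 for 6 arrays, v9p2 for TAM-trial, TAM7 and TAM-8, and v1p1 for PEC1. Each array's deposited values are log ratios, read as log2 because the largest size, 11.687, is a ratio of 3297 in base 2 and of 119014 in base e, above the 65535 of a 16-bit scanner. The labels say nothing of image analysis, background correction, normalization, log base or dyes. No channel intensities were used, so dim spots could not be filtered, and precision is limited by how many arrays there are. Array medians lay between -0.199 and 0.022 and scaled median absolute deviations between 0.688 and 1.165. Between 4.4% and 49.1% of an array's variance went with feature position (the place within runs of 96 feature numbers).

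Of 9596 features, 7486 had 1 gene symbol in the platform table, 483 had several and 1627 none. Features of 1 gene were averaged, which left 8905 genes and unnamed features, 6795 of them named. All 58 member symbols equal those of the RefSeq table. Values were read as channel 2 over channel 1, with TAM-2R and TAM1 turned. The limma package 3.58.1 in R 4.3.3 (lmFit, eBayes) fitted 1 mean per direct comparison over the 10 arrays jointly, with 6 residual and 3.841 prior degrees of freedom. P-values are two-sided and were Benjamini-Hochberg adjusted over 8905 tests, with a threshold of 0.05. The script was tested on simulated data. SDs are over arrays and SEs come from the fit.

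The members and lists were chosen with earlier results of these data known, so no count over them is independent support. Named genes are the members past the test and the measured factors and classical targets of a fixed panel. Also named are up to 6 highest and up to 6 lowest members in each comparison, among those with the same sign on every array. Named outside that rule, after their values were seen, were Gbp7, Ifi203, Trim21, Trim25, Trim30a, Trim30d and Trim62. The genes of the other lists were named after their values were seen. Alternatives were another coding of the exchanged arrays, array scaling and centring, dye terms, 1 print version alone, a loop fit, features taken singly, subtraction of the place median, the arrays of a comparison alone, and leaving out each array.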

Additional observations from a re-analysis of the deposited data

Results flagged for a closer look

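Oas1a in untreated TAM over PEC had 1 array apart from the others. Its log2 ratio was 1.76 on TAM-3 and 0.77, 0.67 and 0.85 on TAM-b, TAM-2R and TAM-8, so the gap to the nearest array was 0.836 of the whole range, above Dixon's critical value for 4 arrays. Of 58 such groups, 1 was apart in this way, and chance gives about 1 in 20. All 4 values lay above 0.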

How the results depend on the processing

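Of the members past the test in untreated TAM over PEC, 2 as reported, 0 remained past it with the exchanged arrays not turned, with arrays scaled to 1 spread, with a dye term, with a dye term for each print, with print v3p6 alone or with the arrays of the comparison alone. The loop fit and subtraction of the place median left 1, and leaving out 1 array left 0 to 1. With LPS in PEC the count of 0 became 1 with a dye term for each print, 2 in the loop fit, and 0 to 1 on leaving out an array. In TAM with LPS over PEC with LPS it became 1 with scaled arrays (Oas1a, mean -1.95, adjusted p = 0.0469). For the difference of LPS responses it became 1 with a dye term for each print, and 0 to 1 on leaving out an array. By the size rule, 8 members in untreated TAM became 2 and 17 in TAM with LPS over PEC with LPS became 3 when the exchanged arrays were not turned. In LPS in TAM, 8 became 19 on print v3p6 alone and 19 to 20 on leaving out an array. Not turning also reversed the means in TAM with LPS over PEC with LPS of Ifit2 (0.03), Irf1 (0.57), Irf5 (0.07), Irf7 (0.72), Irgm1 (0.13), Irgm2 (1.30), Oas1a (0.03), Socs3 (0.21) and Stat3 (0.20). A dye term for each print reversed Trim62 with LPS in PEC (-0.92). In that fit PEC1, the only array of print v1p1, was taken up by the term of its print. LPS in PEC, and its part in the difference of LPS responses, then rested on PEC2 alone. The cause of the other changes was not tested, apart from the smaller number of arrays on v3p6, in a single comparison or after leaving arrays out. Of the single values under these settings, 926 kept their direction and side of the threshold, 27 lost the call, 6 gained it and 10 reversed. No paired analysis was possible because each array already is a direct comparison of a pair of RNAs, and the array numbers in the labels mark no shared mouse, culture or day across comparisons. Signal over background was not known, so its effect on low ratios could not be judged.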
